A study of Mus musculus with 6 samples.

Results

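Ube2w, Cgrrf1 and Spop are 3 genes of the ubiquitin system, chosen by symbol from a table of 516 genes that the authors had already picked for a difference between Mtor-deleted and wild-type mouse eggs. Ube2w and Cgrrf1 were higher in the Mtor-deleted eggs and Spop was lower. The choice was made with these differences known, so their levels and differences are described here without a test. All 6 libraries hold ovulated metaphase II oocytes, eggs arrested at the second meiotic division, from superovulated C57BL/6 females labelled as 24 days old. In the Mtor CKO group (n = 3 libraries) Zp3-Cre, a Cre recombinase driven by the promoter of a zona pellucida gene that is active in growing oocytes, deleted the kinase gene Mtor. The other group is labelled wild type (WT, n = 3 libraries), and the labels do not say whether these females carried the floxed allele or the Cre transgene. PMSG (5 IU) was given to the females at 22 days of age, hCG (5 IU) followed after 48 h, and eggs were taken from the oviduct another 14 h later. A library pools 5 eggs, and nothing ties libraries to separate females, so the spread between libraries may be partly technical.

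Ubiquitin is attached to proteins by a relay of enzymes. An E1 enzyme activates it, an E2 conjugating enzyme carries it, and an E3 ligase brings the E2 and the target protein together. Most E3 ligases bind the E2 through a RING domain, and the cullin-RING ligases use a cullin scaffold with an exchangeable adaptor that chooses the target. Deubiquitinases remove the tag again. In the egg, ubiquitin-driven destruction by the anaphase-promoting complex ends the metaphase II arrest, and maternal proteins are cleared in part by the same system after fertilisation. Ube2w is an E2 known for attaching ubiquitin to the amino terminus of proteins. Cgrrf1 (cell growth regulator with ring finger domain 1) is a RING protein. Spop is a BTB-domain adaptor that links target proteins to the CUL3 scaffold.

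The 3 genes lie on different chromosomes, and their rows cover no other annotated protein-coding gene. In the mm10 assembly the Ube2w row (ENSMUSG00000025939) runs from 16569438 to 16619489 on the minus strand of chromosome 1, and that of Cgrrf1 (ENSMUSG00000055128) from 46832134 to 46854193 on the plus strand of chromosome 14. The Spop row (ENSMUSG00000057522) runs from 95414080 to 95493406 on the plus strand of chromosome 11. No other annotated transcript matched the longest coding transcript of any of the 3 at 90% identity or more over at least 300 bases. The Ube2w row joins 1 coding transcript with 2 retained-intron transcripts, 1 marked for nonsense-mediated decay and 1 assembled from the reads, so its level need not be that of the coding mRNA alone. The Cgrrf1 row holds 3 coding transcripts, 1 retained-intron transcript and 1 assembled one, and the Spop row holds 4 coding transcripts, 1 noncoding one and 2 assembled ones.

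The annotated ends of the longest coding transcripts differ in the letters searched here, which can direct polyadenylation. These letters are shown because the length of the poly(A) tail governs the stability and translation of maternal mRNA in oocytes. Each line gives 30 bases of the longest coding transcript of the row in the GENCODE M21 annotation of the same assembly, 5′ to 3′, with the searched letters in capitals (AATAAA, the polyadenylation signal, or TTTTAT, a cytoplasmic polyadenylation element).
Cgrrf1, chr14:46854153-46854182, plus strand: gtggatgatggaAATAAAgtcttaccactc
Spop, chr11:95493370-95493399, plus strand: atatggagattaAATAAAgggaaattgttg
Ube2w, chr1:16569793-16569822, minus strand: gtgattaatgtaTTTTATaaattacctttt

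On the transcript strand AATAAA began 29 bases before the annotated end in Cgrrf1 and 25 bases before it in Spop. Of the longest coding transcripts of 21832 protein-coding genes, 57.5% hold AATAAA in the last 40 bases. The Ube2w transcript had neither AATAAA nor ATTAAA there, and one or the other is present in 70.2% of genes. No other form of the signal was searched for, so this does not show that the Ube2w end lacks one. The Ube2w transcript was the one of the 3 with TTTTAT in the last 100 bases, a motif found there in 12.9% of genes. The Ube2w row runs 344 bases past the end of this transcript, and which of its joined transcripts reaches that far was not examined. The letters of that longer end were not analysed here, and which end the eggs use is not known. The annotation also places an end of the gene farther on, at 16540790. These matches are descriptions of the annotated ends and show no binding.

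Ube2w, the E2 enzyme, stood at 99.4, 38.4 and 63.2 FPKM (a fragment count scaled to the length of the transcript and to the size of the library) in Mtor CKO replicates 1 to 3. In WT replicates 1 to 3 it stood at 28.6, 21.9 and 18.0 FPKM. The groups did not overlap, but the lowest Mtor CKO library was only 1.34 times the highest WT library. The Mtor CKO mean of 67.0 ± 30.7 FPKM was 2.93 times the WT mean of 22.8 ± 5.39 FPKM (both SD, n = 3). On the log2(FPKM + 1) scale, where changes of low genes come out too small, the difference was 1.43 (SE 0.43). Of all 516 rows, 14.5% were higher in Mtor CKO without overlap between the genotypes and 57.4% were lower without overlap. The members were taken from these rows, so nothing is read from their lack of overlap.

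Cgrrf1, the RING protein, was the least abundant of the 3 in WT eggs and the most even in Mtor CKO. It stood at 11.8, 9.51 and 7.83 FPKM in Mtor CKO replicates 1 to 3 and at 2.37, 2.99 and 1.67 FPKM in WT replicates 1 to 3. The lowest Mtor CKO library was 2.62 times the highest WT library, the widest gap of the 3 genes. The Mtor CKO mean of 9.71 ± 1.99 FPKM was 4.14 times the WT mean of 2.34 ± 0.661 FPKM (both SD, n = 3), and the log2 difference was 1.68 (SE 0.23). The SD in Mtor CKO was 20.5% of the mean for Cgrrf1, 45.8% for Ube2w and 99.1% for Spop. In the authors' deposited table its p-value of 0.00955 lies near the upper bound of the listed rows, where the largest p is 0.0099 and 8 rows lie above Cgrrf1. The q-value there is 0.176, against 0.0344 for Ube2w and 0.00591 for Spop.

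Spop, the CUL3 adaptor, had the opposite direction. It stood at 18.6, 32.4 and 23.0 FPKM in WT replicates 1 to 3 and at 2.75, 13.0 and 2.43 FPKM in Mtor CKO replicates 1 to 3. Mtor CKO replicates 1 and 3 were close to each other, and replicate 2 lay between them and WT without reaching the lowest WT library, which was 1.44 times higher. The WT mean of 24.7 ± 7.03 FPKM was 4.07 times the Mtor CKO mean of 6.06 ± 6.00 FPKM (both SD, n = 3), and the log2 difference was -2.15 (SE 0.69). Without Mtor CKO replicate 2 the log2 difference was -2.80 for Spop, 1.78 for Ube2w and 1.69 for Cgrrf1. The authors' deposited table gives log2 folds of 1.43 for Ube2w, 2.06 for Cgrrf1 and -1.76 for Spop, computed from group values that are not the means of the libraries.

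**Figure D1:**
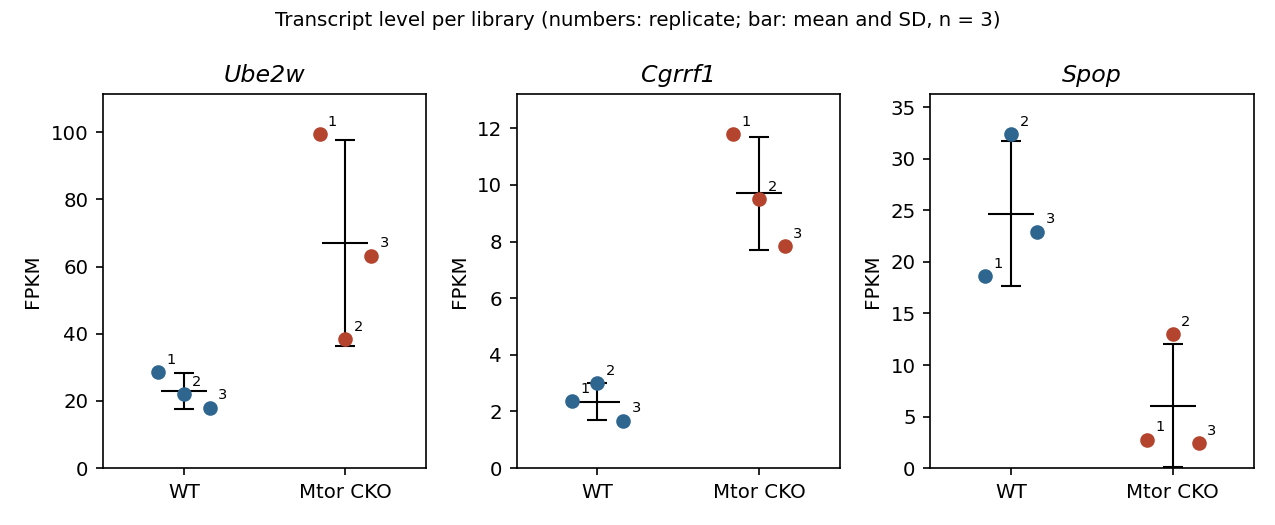
FPKM (vertical axes, each starting at 0) of Ube2w, Cgrrf1 and Spop in the 3 WT and 3 Mtor CKO libraries. Points are libraries with their replicate number, and bars give the mean and SD. Mtor CKO replicate 2 is the lowest of its group for Ube2w (38.4) and the highest for Spop (13.0), and for Cgrrf1 it lies between the other two (9.51).

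Mtor CKO replicate 2 was also the nearest of its group to WT across much of the table. It was the Mtor CKO library closest to WT in 328 of the 516 rows (63.6%), against 65 for replicate 1 and 123 for replicate 3. Among WT libraries, replicate 1 was the lowest in 244 of the 394 rows that are lower in Mtor CKO. What sets these libraries apart was not tested. FPKM holds no read counts, so the depth is unknown. The median FPKM of the 516 rows was between 3.77 and 5.40 in the Mtor CKO libraries and between 7.37 and 9.18 in the WT libraries. Of these rows 394 had been picked as lower in Mtor CKO, so nothing about the libraries is read from the medians. Mtor has no row, so the deletion was not checked here. Of the oocyte markers, 3 of 20 have rows (Nlrp5, Zp2 and Zar1l), with a summed level of 256.5 to 289.9 FPKM in Mtor CKO and 468.7 to 916.4 FPKM in WT. That sum follows Nlrp5 and Zp2, while Zar1l had the opposite direction (22.6 to 36.4 FPKM in Mtor CKO and 9.24 to 18.8 FPKM in WT). For cumulus and granulosa cells 2 of 17 markers have rows, at a summed 1.68 to 3.15 FPKM in Mtor CKO and 4.50 to 9.86 FPKM in WT, and Vcan, 1 of these, is listed at 0 in all 3 Mtor CKO libraries and in WT replicate 3. For oviduct epithelium 1 of 7 has a row (Krt7, 4.23 to 10.1 FPKM in Mtor CKO and 2.45 to 4.40 FPKM in WT), and for blood and immune cells 0 of 6 have one. Rows exist only for genes picked for a difference, so a marker without a row may still be expressed in these libraries. The part of other cells in the differences was not tested. Fewer eggs with a transcript and less of it per egg cannot be told apart in pooled eggs.

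A ratio between genes of the same library does not depend on how that library was scaled. The Ube2w level was 36.1, 2.95 and 26.0 times that of Spop in Mtor CKO replicates 1 to 3. In WT replicates 1 to 3 it was 1.54, 0.677 and 0.783 times that of Spop. Spop was thus above Ube2w in WT replicates 2 and 3 and below it in the other 4 libraries. The Cgrrf1 level was 4.28, 0.732 and 3.22 times that of Spop in Mtor CKO and 0.127, 0.0924 and 0.0728 times in WT. Neither ratio overlapped between the genotypes. This had to follow, because none of the 3 genes overlapped and Spop has the opposite direction, so nothing is read from it. On the log2(FPKM + 1) scale the added 1 lets the ratio depend on scaling. There the Ube2w to Spop ratio differed by 3.58 between the genotypes, and by 4.58 without Mtor CKO replicate 2. For Cgrrf1 to Spop the difference was 3.83, and 4.49 without that library. With 0.01 added in place of 1 and all libraries kept, the differences were 3.91 for Ube2w to Spop and 4.50 for Cgrrf1 to Spop. Ube2w and Cgrrf1, both higher, stood in a ratio of 4.03 to 8.43 in Mtor CKO and 7.33 to 12.1 in WT, ranges that overlapped.

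**Figure D2:**
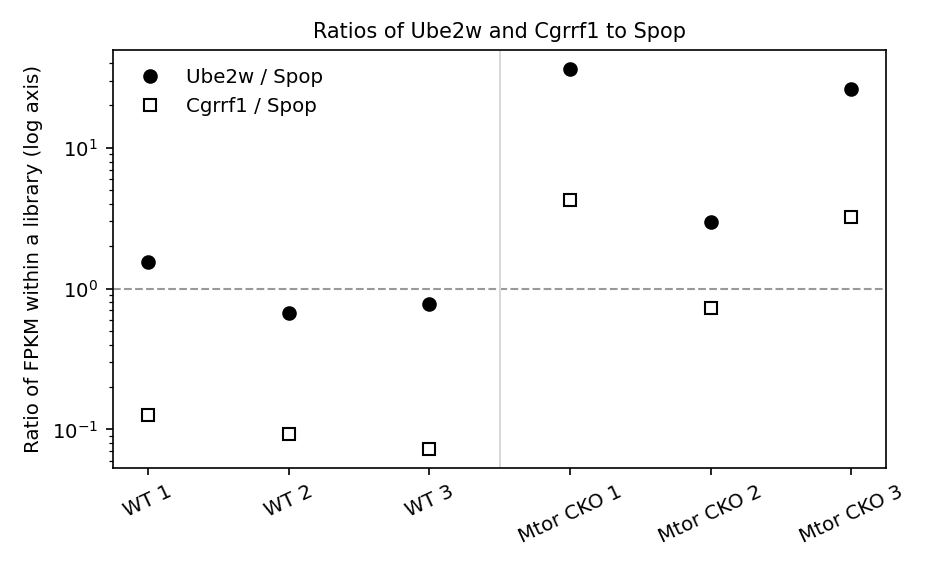
Ratio of the FPKM of Ube2w (filled circles) and of Cgrrf1 (open squares) to that of Spop in each library, on a log axis; the dashed line marks equal levels. The Ube2w ratio runs from 0.677 to 1.54 in WT and from 2.95 to 36.1 in Mtor CKO, and the Mtor CKO library nearest to WT is replicate 2.

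In order of level per length, Ube2w and Spop were alike in WT (means of 22.8 ± 5.39 and 24.7 ± 7.03 FPKM, both SD with n = 3), a difference smaller than their spread, and Cgrrf1 lay below both in each WT library. In Mtor CKO, Ube2w was above the others in each library. Cgrrf1 was above Spop in replicates 1 and 3 and below it in replicate 2, so these neighbours did not differ beyond their spread. Among the 516 rows Ube2w ranked 30th, 70th and 43rd by level in Mtor CKO replicates 1 to 3, and 108th, 148th and 166th in WT. Spop ranked 289th, 160th and 324th in Mtor CKO and 157th, 122nd and 135th in WT.

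The genes whose profile over the 6 libraries was most like each member were found by the mean absolute difference in log2(FPKM + 1), each profile centred on its own mean, among 400 other rows. Nearest to Ube2w were Wfdc15a (mean absolute difference 0.12), the ribosomal protein gene Rps20 (0.17) and Ahnak, which encodes a very large scaffold protein (0.19). Wfdc15a stood in Mtor CKO at 90.4, 37.5 and 73.4 FPKM and in WT at 32.1, 22.9 and 21.4 FPKM, with replicate 2 again the lowest of its group. Nearest to Cgrrf1 were Padi4, a peptidylarginine deiminase (0.22), Fam26f (0.25) and Nmu, the gene of the neuropeptide neuromedin U (0.25). Padi4 was far lower than Cgrrf1 in WT, at 0.376, 1.02 and 0.651 FPKM, and stood at 7.06, 6.77 and 4.30 FPKM in Mtor CKO. Nearest to Spop were Hsdl1 (0.23), the sterol transporter Abcg1 (0.25) and Ubl3, a ubiquitin-like protein anchored to membranes (0.27). Ubl3 stood at 35.2, 116.8 and 37.7 FPKM in Mtor CKO and at 145.3, 239.7 and 129.4 FPKM in WT, so its Mtor CKO replicate 2 was also the highest of the group. These rows were picked for their likeness over the same libraries, so a shared position of Mtor CKO replicate 2 follows from the choice. Over all rows, replicate 2 was the highest Mtor CKO library in 62.2% of those lower in Mtor CKO. It was the lowest in 68.0% of those higher. The table also holds only genes that differ between the same libraries, which further limits what likeness can show.

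Of other ubiquitin-system genes, drawn from a list of 10 gene classes by symbol, 15 have a row, and 13 of these were lower in Mtor CKO and 2 higher in the authors' deposited table. Over all rows there, 76.4% were lower and 23.6% higher. By limma with Benjamini-Hochberg adjustment at 0.05 over the 471 rows of sufficient level, 10 of the 15 fell (66.7%) and 0 rose. Over all tested rows 60.3% fell and 13.4% rose, so the share that fell is near the background. At an unadjusted p under 0.05 the counts were 11 lower and 1 higher. The median log2 difference of the 15 was -1.06, and that of all 471 was -1.03. The rows had been picked for this same difference, so passing limma is not independent evidence. The authors' q-value is above 0.05 for Sae1, Trim6, Fbxo47, Ercc8 and Cops7a (0.0529 to 0.127), which passed limma. It is under 0.05 for Usp37, Ube2h, Rnf4, Kbtbd4 and Fbxo25, which also passed. Trim71, Btbd2 and Stub1 did not pass limma but have a q of 0.0209 to 0.0450, and Trim26 and Nosip passed neither. Of the 516 rows, 254 have a q of at most 0.05. Without Mtor CKO replicate 1 or 3, or WT replicate 2 or 3, 0 of the 15 passed, and the count was 11 lower and 1 higher without Mtor CKO replicate 2. Relative to the table's median of -1.03 the split over all tested rows was 99 higher and 1 lower, and 0 of the 15 were lower and 1, Btbd2, was higher. On that scale the log2 differences of Ube2w, Cgrrf1 and Spop were 2.46, 2.71 and -1.12. Such centring subtracts the common fall of picked genes. The list does not hold every gene of the system: the RING genes Ccnb1ip1 and Lonrf2 and the SUMO ligases Pias3 and Pias4 have rows outside it, and these 4 were chosen after their values were seen. Pias3 was higher in Mtor CKO (log2 difference 1.23, limma adjusted p = 0.0426) and Pias4 lower (log2 difference -1.66, limma adjusted p = 0.0474). The means of Ccnb1ip1 were 7.10 in the Mtor CKO and 2.20 FPKM in the WT libraries (limma adjusted p = 0.0802), and those of Lonrf2 were 1.19 and 2.39 FPKM in the same order (limma adjusted p = 0.0937).

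Among E1 and E2 enzymes, Ube2h and Sae1 fell, opposite to the direction of Ube2w. Ube2h, the E2 that works with the CTLH ligase complex, stood at 11.4, 26.1 and 20.9 FPKM in Mtor CKO and at 44.6, 71.6 and 43.6 FPKM in WT, without overlap. Its log2 difference was -1.44 (SE 0.41, limma adjusted p = 0.0362). From here on the SE is that of limma, unlike the SE given above for Ube2w, Cgrrf1 and Spop. Ube2h has 3 near-identical copies in the annotation, 2 of them processed pseudogenes, so its level is uncertain. Sae1 is a subunit of the E1 that activates SUMO, a relative of ubiquitin. Its mean fell from 5.56 ± 0.686 FPKM in WT to 2.18 ± 0.707 in Mtor CKO (both SD, n = 3), by 1.06 on the log2 scale (SE 0.32, adjusted p by limma 0.0371).

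Of the 5 other RING-family genes on the list Rnf4 and Trim6 fell, and Trim71, Trim26 and Nosip did not pass. Rnf4, a ligase that recognises SUMO-tagged proteins, stood at 24.3, 35.0 and 21.4 FPKM in Mtor CKO and at 37.5, 64.8 and 67.8 FPKM in WT (log2 difference -1.03, SE 0.38, limma adjusted p = 0.0416). Rnf4 has a processed pseudogene, Gm16074, that matches it at 91.9% over 456 bases. Trim6 fell by 0.87 on the log2 scale (SE 0.35), close to the threshold with a limma adjusted p of 0.0498, and without a filter on level the adjusted p was 0.0507, with a range from 0.0406 to 1 over all its alternatives. Trim71, the LIN41 RNA-binding protein known to regulate translation in stem cells and embryos, had overlapping groups, at 4.29, 9.90 and 6.65 FPKM in Mtor CKO and 9.34, 22.1 and 14.6 FPKM in WT (limma adjusted p = 0.0561). In Trim26 the Mtor CKO libraries stood at 1.47, 7.66 and 1.20 FPKM, replicate 2 alone lying within the WT range of 5.23 to 8.30 FPKM. Nosip was at 1.03, 16.95 and 4.79 FPKM in WT, so its higher WT mean rested mainly on replicate 2 (limma adjusted p = 0.132). The rows of Nosip and Trim71 each take in another protein-coding gene, Prrg2 and C130032M10Rik, so reads of these may be included. The calls of Trim71, Trim26 and Nosip changed with the setting. Without Mtor CKO replicate 2 the limma adjusted p was 0.0296 for Trim71 and 0.0125 for Trim26. Without WT replicate 1 it was 0.0477 for Trim71 and 0.0442 for Nosip. Over all alternatives it ran from 0.0213 to 1 for Trim71, from 0.0125 to 1 for Trim26 and from 0.0442 to 1 for Nosip.

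Among relatives of Spop, the BTB-domain family that includes CUL3 adaptors has 2 other rows. Kbtbd4, a kelch adaptor of CUL3, fell from a mean of 20.9 ± 4.24 FPKM to 9.32 ± 3.04 (both SD, n = 3), by 1.10 on the log2 scale (SE 0.37, adjusted p by limma 0.0389), and its row also takes in Ndufs3 and Ptpmt1, so reads of these genes may be included. Btbd2 stood at 17.4, 11.6 and 14.5 FPKM in Mtor CKO and at 8.25, 8.46 and 6.32 FPKM in WT. Its groups did not overlap and it missed the threshold with a limma adjusted p of 0.0508, a value that was 0.0424 without the intensity trend and 0.0498 with a pseudocount of 0.1, and ran from 0.00411 to 0.165 over all its alternatives. Cul3, Rbx1 and the Spop paralogue Spopl have no row and were not analysed here.

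The adaptors of other cullin ligases and the cullin regulator on the list fell. Fbxo25 and Fbxo47 are F-box proteins, the adaptors of CUL1 ligases. The mean of Fbxo25 fell from 12.4 ± 1.26 FPKM to 5.66 ± 2.53 and that of Fbxo47 from 4.43 ± 0.728 FPKM to 1.82 ± 0.160 (all SD, n = 3). Ercc8, the CSA adaptor of CUL4 ligases that acts in transcription-coupled DNA repair, fell from a mean of 3.46 ± 1.20 FPKM to 0.939 ± 0.158 (both SD, n = 3). Cops7a, a subunit of the COP9 signalosome that strips NEDD8 from cullins, stood at 1.23, 7.33 and 3.14 FPKM in Mtor CKO and at 14.8, 9.00 and 8.48 FPKM in WT. The log2 differences of these 4 ran from -1.43 for Cops7a to -0.94 for Fbxo47, with limma adjusted p from 0.0362 to 0.0410. As in Spop, replicate 2 was the highest Mtor CKO library for Fbxo25, Ercc8 and Cops7a, but it was the lowest for Fbxo47. For Ercc8 the Mtor CKO libraries lay close together, at 0.949, 1.09 and 0.776 FPKM. Over all rows lower in Mtor CKO, replicate 2 was the highest of its group in 62.2%.

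The remaining rows are a deubiquitinase and a U-box ligase. Usp37, a deubiquitinase known to stabilise cyclin A, stood at 7.18, 13.7 and 10.7 FPKM in Mtor CKO and at 19.6, 54.9 and 29.7 FPKM in WT (log2 difference -1.55, SE 0.45, limma adjusted p = 0.0362), and its interval takes in 4 other protein-coding genes. Stub1, the U-box ligase CHIP that marks chaperone clients, stood at 210.9 FPKM in Mtor CKO replicate 1 and at 5.43 and 4.47 FPKM in the other two, against 5.25 to 13.2 FPKM in WT. Its higher mean therefore came from 1 library, and limma gave an adjusted p of 0.403. Its log2 difference was 1.08, and -0.64 without that library. The Stub1 row spans 191110 bases with 17 other protein-coding genes, so the value cannot be given to Stub1. The anaphase-promoting complex and the ubiquitin precursor genes have 0 rows.

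**Figure D3:**
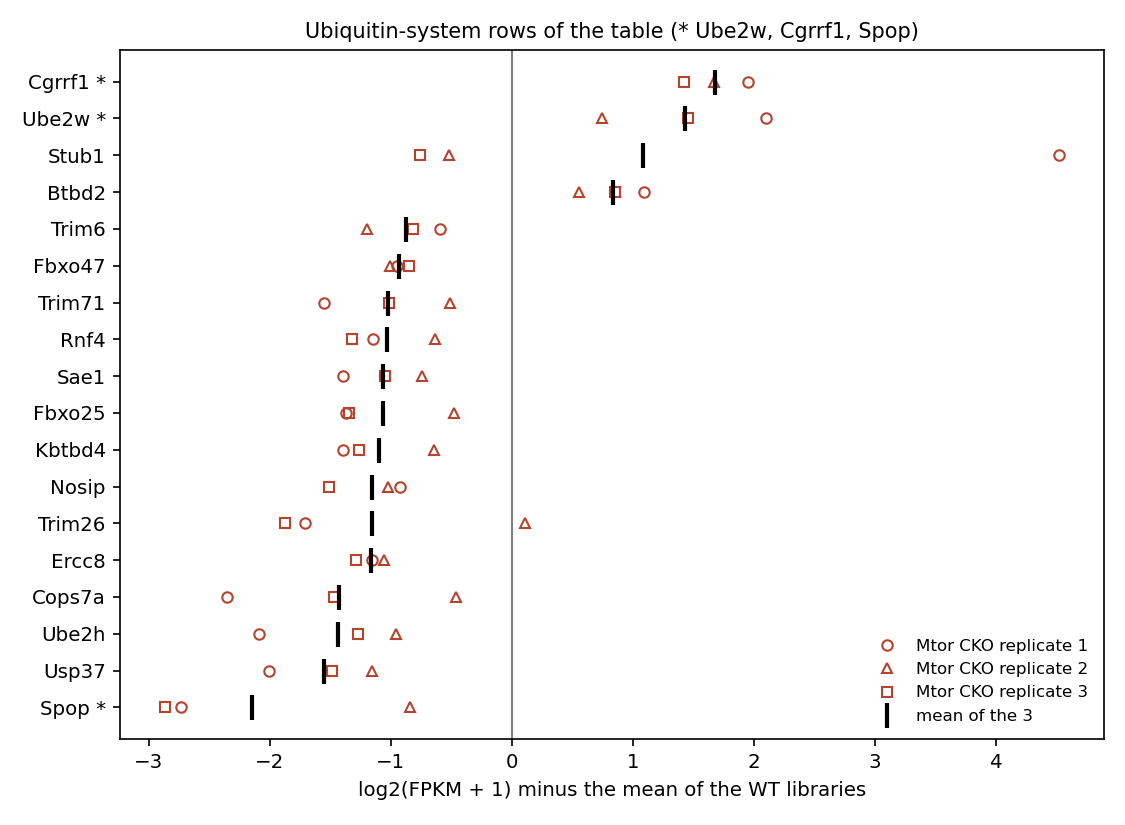
Level of the 18 ubiquitin-system rows in each Mtor CKO library, as log2(FPKM + 1) minus the mean of the WT libraries (horizontal axis); symbols are replicates and the vertical bar is their mean. With all libraries on this scale the means of Cgrrf1 (1.68) and Ube2w (1.43) lie at the upper end and that of Spop (-2.15) at the lower end, and the Stub1 mean rests on replicate 1 alone.

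Transcript length moved with direction in the table: of rows whose longest coding transcript was at or under the median of 3031 nucleotides, 30.4% were higher in Mtor CKO, against 15.7% of longer ones. That transcript has 1324 nucleotides for Cgrrf1, 2181 for Ube2w and 3063 for Spop. The part of length in their differences was not tested.

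**Figure D4:**
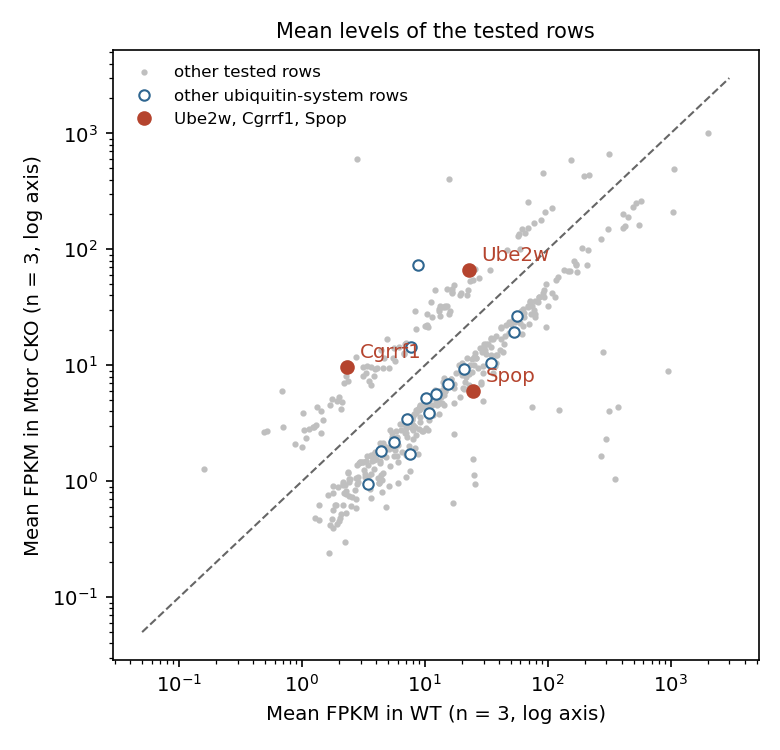
Mean FPKM of the 471 tested rows in WT (horizontal) and Mtor CKO (vertical), both on log axes, n = 3 libraries each; the dashed line marks equal means. Ube2w (22.8 against 67.0) and Cgrrf1 (2.34 against 9.71) lie above the line and Spop (24.7 against 6.06) below it, and the empty band along the line reflects that the rows had been picked for a difference.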

How the data were processed

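RNA of 6 libraries was sequenced after cDNA synthesis with an ultra-low-input kit and 17 PCR cycles, per the labels' protocols, so reads are not independent molecules. TopHat2 2.0.8b, Cufflinks 2.1.1, Cuffdiff and the mm10 build are named in the submitters' processing notes. The authors deposited FPKM of each library and group for 516 genes, with their log2 fold changes, p-values and q-values, all with an absolute log2 fold of at least 1.0006 and p of at most 0.0099. The log2 fold was read as Mtor CKO over WT, as its group FPKM show. Deposited starts were 1 less than the annotated start in 291 of 513 rows and equal to it in 5, so 1 was added to each.

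Means, SDs and log2(FPKM + 1) differences were computed from the libraries. The SE given for Ube2w, Cgrrf1 and Spop was computed from the libraries of that gene alone. For the other genes the SE is that of limma, which borrows spread across rows, so the 2 kinds are not comparable. By limma the SE was 0.42 for Ube2w, 0.34 for Cgrrf1 and 0.56 for Spop. Limma 3.58.1 (R 4.3.3, intensity trend) was fitted to rows with at least 1 FPKM in at least 3 libraries, with genotype as the term, and was tested on simulated data. Copies were sought with BLAST+ 2.17.0. Members and gene lists were chosen with earlier results of these data known. Named were the members, the 3 nearest profiles of each among rows with established symbols, and every other listed ubiquitin-system row.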

Additional observations from a re-analysis of the deposited data

How the results depend on the processing

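The direction of Ube2w, Cgrrf1, Spop and the within-library ratios was kept in each of their alternatives. Centring on the median of all tested genes moved the log2 differences to 2.46, 2.71 and -1.12, and for Cgrrf1 pseudocounts of 0.1 and 0.01 gave 2.02 and 2.07. Leaving out 1 library gave 1.10 to 1.78 for Ube2w, 1.53 to 1.82 for Cgrrf1 and -2.80 to -1.79 for Spop. With 1 library left out, the Ube2w to Spop difference ran from 2.95 to 4.58 and the Cgrrf1 to Spop difference from 3.40 to 4.49. Of the 15 other ubiquitin-system rows, 0 were higher by limma, and 1 was with each of these changes: a mean of at least 1 or 5 FPKM in a group, a pseudocount of 0.1, no intensity trend, the replicate block, or centring. The count of lower rows was 10, 0 when centred and 8 to 12 under the other settings that kept every library. Leaving out 1 library gave 0 to 1 higher and 0 to 11 lower. Over all 471 rows, 63 were higher and 284 lower, 99 and 1 when centred, and 1 to 91 and 1 to 298 with 1 library left out. Each such fit kept the same number of libraries, but the counts differed with the library left out. They were 91 higher and 298 lower without Mtor CKO replicate 2, and 37 and 209 without WT replicate 1. Without any of the others they were 1 to 2 higher and 1 to 3 lower. The cause was not tested. The labels do not say whether same-numbered libraries were prepared together. Their deviations from the means of their groups correlated at 0.115, 0.240 and 0.0843. With the replicate block 12 of the 15 were lower and 1 higher (79 higher and 326 lower over all rows), and the median same-numbered differences were 1.76, 1.72 and -2.39 for Ube2w, Cgrrf1 and Spop. Read depth is unknown, so the counting error of the low Cgrrf1 levels in WT cannot be given.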
